A study of Rattus norvegicus with 6 samples.

Results

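The genes of the voltage-gated sodium, potassium and calcium channels were examined in crushed and intact sciatic nerves of rats. All rows of the deposited gene table whose gene name starts with Scn and a digit, with Kcn or with Cacn were taken, which gave 133 of the 30957 genes of the table. They comprised 14 Scn, 93 Kcn and 26 Cacn genes. The 133 rows carried 132 symbols, because Kcnk6 stood in the table with 2 identifiers, and all 132 symbols belong to protein-coding genes in the RefSeq annotation. Potassium channels gated by calcium or sodium, leak channels and the auxiliary subunits share these name stems and were included.

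RNA-seq had been performed on the sciatic nerves of Sprague-Dawley rats, 3 of them crushed and 3 intact from the contralateral side, to find which transcripts differ after nerve injury. According to the methods the rats were adult males, for which no transgene is named, the crush was made with forceps under pentobarbital anesthesia, and the nerves were taken at 4 days postinjury (dpi), the crushed ones as a stump proximal to the lesion. The sample labels give strain and tissue but neither the time point nor which crushed and intact nerves came from 1 animal, so that p-values measure only the spread between these 6 nerves. The methods include a treatment with RNase R, which digests linear RNA such as mRNA, and the labels do not mention it.

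Voltage-gated channels carry the electrical signals of axons. Sodium channel alpha subunits form the pore that opens on depolarization and drives the upstroke of the action potential, potassium channels repolarize the membrane, and calcium channels admit the calcium that triggers transmitter release, contraction and transcription. Auxiliary subunits set the number of channels at the surface and their gating. In myelinated nerve, Scn8a is the main sodium channel of the nodes of Ranvier, Kcna1 and Kcna2 lie beside the nodes under the myelin, and Kcnq3 contributes to the M-current. Much of a neuron's channel mRNA lies in the cell body in the ganglion or spinal cord, whereas a nerve segment mainly holds the RNA of Schwann cells, fibroblasts, vessels and immune cells.

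The libraries lacked several of the markers that define their labelled tissue, while other markers were present. The myelin gene Mbp had at most 1 count in any nerve, Sox10 of Schwann cells had at most 1 and S100b at most 3, and Mag, Pmp2, Cdh19, Gap43 and the leukocyte gene Ptprc had 0 counts in all 6 nerves. Other genes of the myelin list were present, with Pmp22 at 821 to 968 counts, Prx at 590 to 690 and Cnp at 1086 to 1473. Of the Schwann cell list Ncam1 had 2064 to 2489 counts, Erbb3 89 to 135 and Gfap 65 to 81. Of the macrophage list Cd14 had 49 to 84 counts and Cd68 29 to 52. The proliferation gene Mki67 had between 37037 and 43837 counts in each nerve, crushed and intact alike. The nerves are therefore named below by their labels, as labelled crushed and labelled intact, shortened to crushed and intact. Total counts per nerve lay between 24844371 and 27139360, at which depth 3 counts, the smallest level taken as detected, stood for 0.110 to 0.121 normalized CPM (counts divided by the library's effective size). Nerves of 1 group were not duplicates of each other, since the chi-square between their counts was 3.39 to 12.4 per degree of freedom. In bulk RNA, fewer cells of a type and less RNA per cell cannot be told apart.

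Most channel genes were at or near 0 counts in these libraries. Of the 133 genes, 66, or 49.6%, had 0 counts in all 6 nerves, beside 43.7% of all genes of the table, and 67 had at least 1 count. A gene was taken as detected with at least 3 counts in at least 3 nerves, which held for 44 channel genes, or 33.1%, and for 13815 of the 30824 other genes, or 44.8%. Detection covered 7 of 14 Scn genes, 25 of 93 Kcn genes and 12 of 26 Cacn genes. The reads on all channel genes together were 12972 to 13902 per nerve, or 0.0508% to 0.0540% of all counts.

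By class, the potassium pore subunits were the least often detected of the pores. Among 38 voltage-gated potassium alpha subunits 7 were detected and 20 had 0 counts, and among 15 inward rectifiers, which hold the resting potential, 3 were detected and 12 had 0 counts. Of the 15 two-pore potassium channels, which carry leak current, 3 were detected, and of the 12 potassium channel genes activated by calcium or sodium, with their beta subunits, 4. Of the potassium auxiliary subunits 8 of 13 were detected. Of the sodium alpha subunits 6 of 10 were detected and of the sodium beta subunits 1 of 4. Calcium channels had 6 of 10 alpha1 pore subunits, 2 of 4 alpha2delta subunits, 3 of 4 beta subunits and 1 of 8 gamma subunits detected.

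**Figure D1:**
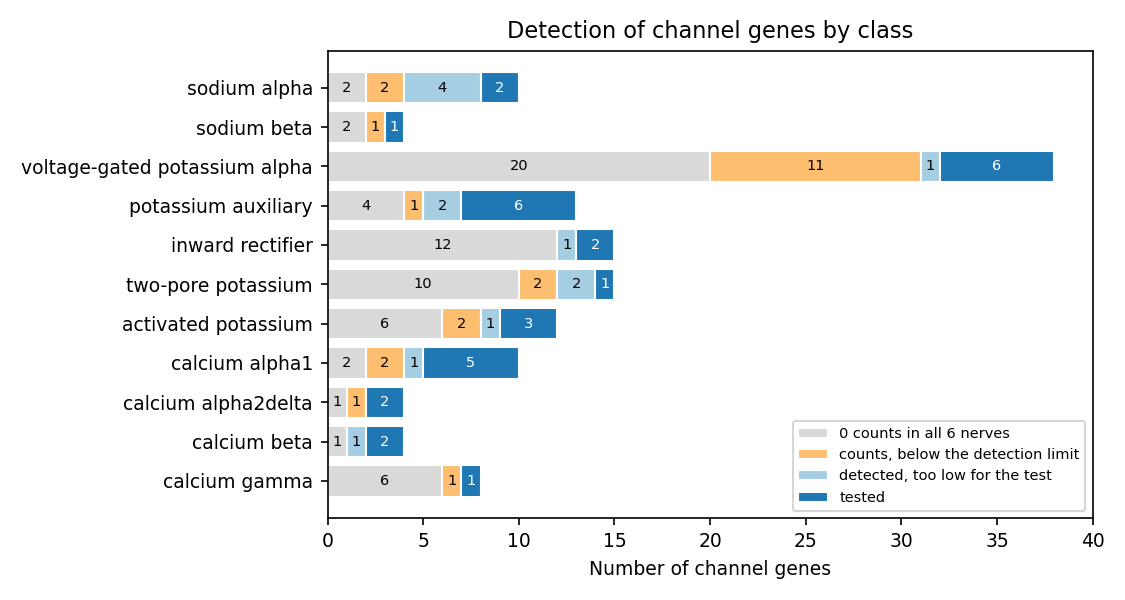
Number of channel genes in each class (horizontal axis) by detection: 0 counts in all 6 nerves, some counts but below the limit of 3 counts in 3 nerves, detected but too low for the test between groups, and tested. Of the 38 voltage-gated potassium alpha subunits 20 had 0 counts and 6 could be tested, and 31 of the 133 genes could be tested in all.

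Several channel genes known from peripheral nerve were at or near 0 in both groups, while others, among them Kcnn4, Cacna2d1, Kcnab2 and Cacna1b, lay above 1 FPKM and are described with the levels. Scn8a, Kcna1, Kcna2 and Kcnq3 had 0 counts in all 6 nerves. Scn11a of nociceptors, the sodium beta subunit Scn2b, the glial inward rectifier Kcnj10, the large-conductance calcium-activated channel Kcnma1 and the T-type channel Cacna1h of sensory neurons were likewise at 0 counts in every nerve. A count of 0 allows a level of up to the 3 counts given above, and this limit covers counting error only.

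The sensory neuron genes Scn9a and Scn10a had counts in crushed nerves alone, at levels that do not separate the groups. Scn9a, a sodium channel of pain-sensing neurons, had 0, 0 and 0 counts in intact nerves 1 to 3 and 0, 6 and 2 counts in crushed nerves 1 to 3. Scn10a, its tetrodotoxin-resistant relative, had 0 counts in 5 nerves and 3 counts in crushed nerve 3. Scn7a, an atypical sodium channel known from Schwann cells and sensory neurons, had 6, 3 and 1 counts in intact and 5, 14 and 5 counts in crushed nerves. The Scn7a counts overlapped between groups. The L-type calcium channel Cacna1c had 2 counts, both in crushed nerve 2. The mechanosensitive leak channel Kcnk2 had 5, 11 and 3 counts in intact and 4, 11 and 9 counts in crushed nerves, again with overlap.

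The sodium alpha genes lie in clusters, and their counts differed widely within a cluster. In the Rnor_6.0 coordinates of the table, Scn3a, Scn2a, Scn1a, Scn9a and Scn7a lie in this order on chromosome 3 between 51532627 and 52849907. Scn2a, which encodes an alpha subunit of brain and unmyelinated axons, had 1704 counts over the 6 nerves, Scn1a 406, Scn7a 34, Scn3a 29 and Scn9a 8. On chromosome 8, Scn10a and Scn11a had 3 and 0 counts over the 6 nerves. Scn4a of skeletal muscle on chromosome 10 had 27. Scn2a held 76.6% of the summed FPKM (counts corrected for gene length and library total) of the 10 alpha subunits, and its FPKM was 1.13 ± 0.0738 (SD, n = 3) in intact and 1.04 ± 0.0938 in crushed nerves. All 14 sodium channel genes together reached 2.16 ± 0.230 FPKM in intact and 2.05 ± 0.0710 in crushed nerves.

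A few genes carried most of the channel mRNA, one in nearly every class. Levels are given as mean FPKM over the 6 nerves, the scale that allows comparison between genes. Kcnq5, a pore subunit of M-type potassium channels, was the highest at 21.1 FPKM, higher than 85.7% of all genes of the table. It was followed by Kcnn4, the intermediate-conductance calcium-activated potassium channel of red cells, lymphocytes and proliferating cells, at 18.3 FPKM, and by Cacnb3, a calcium channel beta subunit that carries the pore to the membrane, at 14.3 FPKM. These 3 genes held 50.6% of the summed FPKM of the 133 genes. The 17 genes above 1 FPKM held 93.2%.

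Below these came Kcnt1, the sodium-activated potassium channel, at 7.88 FPKM, Cacna2d1, the alpha2delta subunit bound by gabapentin, at 5.97 FPKM, and Cacna1i, the pore of a T-type calcium channel that opens near the resting potential, at 5.91 FPKM. Kcnd1, an A-type potassium channel, stood at 4.99, Kcnj14, an inward rectifier, at 4.14, Kcnh1, the ether-a-go-go channel, at 3.91, and Kcnk5, an acid-sensitive two-pore channel, at 2.64 FPKM. Kcnh2, the ERG channel of cardiac repolarization, stood at 1.90 FPKM and its relative Kcnh6 at 1.23. Kcnip4, a calcium-binding partner of A-type channels, was at 1.78, Kcnn1, a small-conductance calcium-activated channel, at 1.5, and Kcnab2, a beta subunit of axonal potassium channels, at 1.20 FPKM. Scn2a at 1.08 and Cacna1b, the N-type calcium channel of nerve terminals, at 1.01 completed the genes above 1 FPKM.

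Within subfamilies 1 member usually held nearly all of the level. Kcnq5 held at least 99.8% of the Kv7 FPKM in each nerve, while Kcnq3, a subunit of the neuronal M-channel, was at 0 counts. Cacna1i held 99.1% of the T-type FPKM, with Cacna1g at 77 counts over the 6 nerves and Cacna1h at 0. Cacnb3 held 93.7% to 95.5% of the calcium beta subunit level in each nerve, Cacna2d1 94.2% of the alpha2delta level, Kcnk5 89.7% of the two-pore level and Kcnj14 83.5% of the inward rectifier level. The Kv10 to Kv12 group was shared more evenly, with 55.4% for Kcnh1 and the rest mainly for Kcnh2 and Kcnh6. The L-type group was low, at a sum of 0.329 FPKM, of which Cacna1d held 94.7%.

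**Figure D2:**
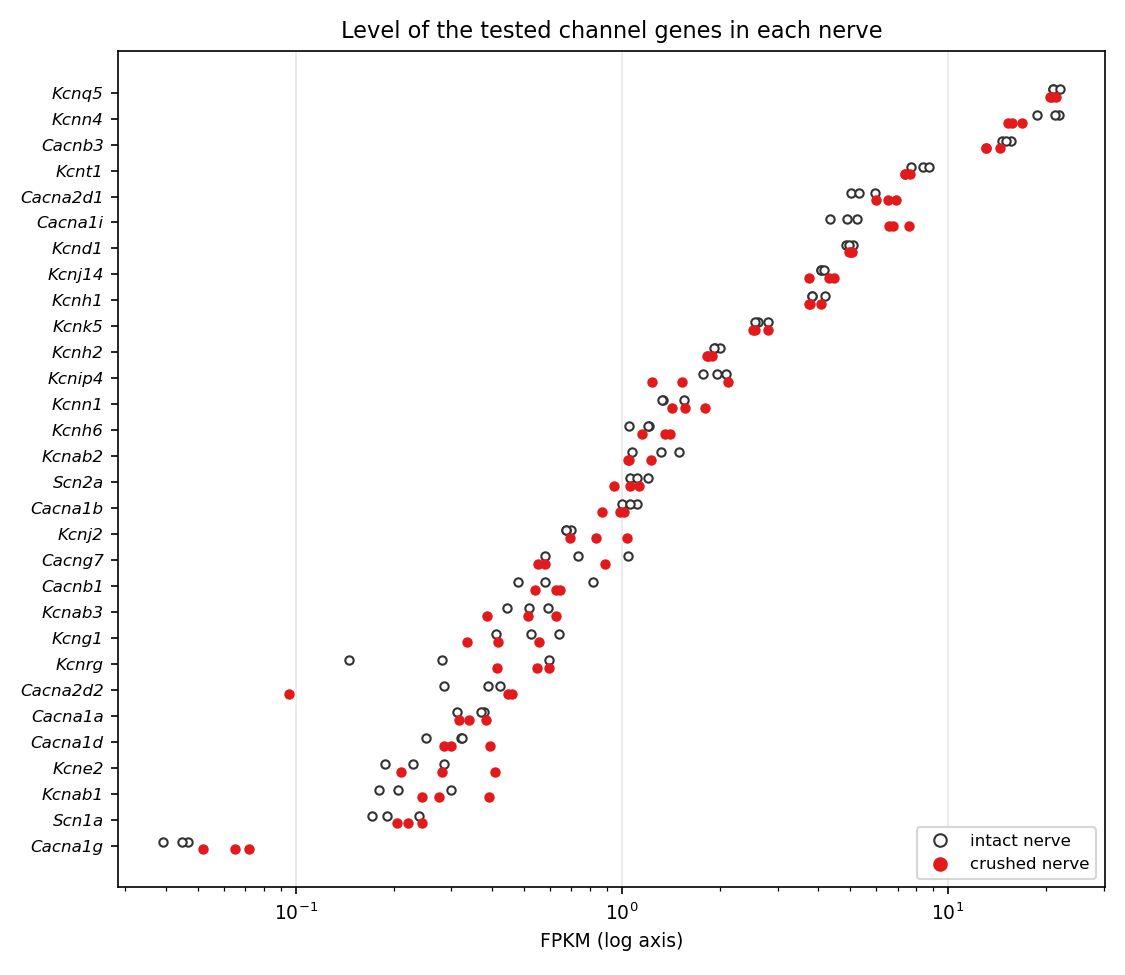
FPKM (horizontal axis, log scale) of 30 tested channel genes in each of 3 intact (open) and 3 crushed nerves (red), 1 row per gene in order of mean level. Kcnq5, Kcnn4 and Cacnb3 lie highest, at means of 21.1, 18.3 and 14.3 FPKM, and for most genes the red and open points are interleaved.

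No channel gene was called differentially expressed between crushed and intact nerves at the limits of the study's methods, which do not say whether p is adjusted or from which test. The p was read here as unadjusted. Of the 133 genes, 31 had enough counts for the test, namely 3 Scn, 18 Kcn and 10 Cacn genes, and 0 were called higher and 0 lower at an absolute log2 fold change (log2FC) above 1 and an unadjusted p under 0.001 with edgeR's quasi-likelihood test. Over all 12393 genes tested, 0.282% were called by the same rule, 0.218% higher and 0.0646% lower. DESeq2, edgeR's exact test and limma on FPKM also called 0 channel genes. At an adjusted p under 0.05 with no limit on the fold, Cacna1i rose and Kcnn4 fell, 1 of 31 in each direction, against 3.12% of all tested genes, 1.47% higher and 1.65% lower. At an unadjusted p under 0.05, 2 channel genes were higher and 3 lower, beside 6.71% and 9.5% of all tested genes.

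Cacna1i rose by less than 2-fold in the crushed nerves. Its counts were 827, 1040 and 908 in intact nerves 1 to 3 and 1337, 1362 and 1406 in crushed nerves 1 to 3. The groups did not overlap, with every crushed nerve higher. Normalized CPM was 36.3 ± 3.38 (SD, n = 3) in intact and 51.7 ± 3.83 in crushed nerves. The change was a log2FC of 0.51 with a standard error (SE) of 0.0783, or 1.43-fold with a 95% interval of 1.27 to 1.61, at an adjusted p of 0.00441 (edgeR's quasi-likelihood test, Benjamini-Hochberg adjustment). The exact permutation test over nerves gave p = 0.1, two-sided, the smallest that 3 against 3 nerves allow. The gene (ENSRNOG00000060407) lies on chromosome 7 from 121511097 to 121619194.

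With Cacna1i, the summed FPKM of the T-type group was 4.88 ± 0.460 in intact and 7.05 ± 0.522 in crushed nerves. Its share of the FPKM of all 10 alpha1 pores was 70.8%, 75.4% and 73.0% in the intact and 80.9%, 78.6% and 81.5% in the crushed nerves, without overlap. The other tested alpha1 genes did not pass, and the remaining alpha1 genes were too low for the test. Cacna1b had counts of 325, 303 and 300 in intact and 269, 312 and 279 in crushed nerves, and Cacna1a, the P/Q-type pore, had 74 to 86 counts in intact and 76 to 85 in crushed nerves. For Cacna1b the log2FC was −0.17 with an SE of 0.0936 and for Cacna1a −0.05 with an SE of 0.148. Cacna1d, an L-type pore, had a log2FC of 0.11 with an SE of 0.168.

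Kcnn4 fell in the crushed nerves. Its counts were 1238, 1506 and 1361 in intact nerves 1 to 3 and 1181, 1097 and 980 in crushed nerves 1 to 3. The lowest intact nerve stood above the highest crushed nerve, in normalized CPM at 48.9 against 43.2. Means were 53.6 ± 4.22 normalized CPM (SD, n = 3) in intact and 40.9 ± 2.11 in crushed nerves. Its log2FC was −0.39 with an SE of 0.0686, a ratio of 0.763 with a 95% interval of 0.687 to 0.847, at an adjusted p of 0.0113 (edgeR's quasi-likelihood test). Without intact nerve 2, crushed nerve 2 or crushed nerve 3 the adjusted p was 0.0536, 0.0604 and 0.0577 with the same test, and the call was lost. The exact permutation p was 0.1. The gene (ENSRNOG00000019440) lies on chromosome 1 from 81230612 to 81245996.

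The sum over the small- and intermediate-conductance and other calcium-activated pores was 22.1 ± 1.55 FPKM in intact and 17.5 ± 0.979 in crushed nerves, of which Kcnn4 held 92.4%. Kcnn1, which did not pass the test, had counts of 130, 116 and 108 in intact and 160, 126 and 127 in crushed nerves, with a log2FC of 0.16 with an SE of 0.132. Kcnmb4, a beta subunit of Kcnma1, which itself had 0 counts, was too low for the test at 5, 6 and 10 counts in intact and 2, 4 and 3 counts in crushed nerves.

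Some markers of several cell types were lower in the crushed nerves as well, while others were higher without passing the adjusted test. Of 5 tested mural genes 2 were lower at an adjusted p under 0.05 in the same test, Pdgfrb and Cspg4. Over all genes tested, 1.65% were lower by this rule. The summed level of the mural list was 222 to 239 normalized CPM in intact and 178 to 182 in crushed nerves. Most of it was Cspg4, at means of 181 in intact and 142 in crushed nerves. Other mural markers were at or near 0, with Rgs5 at 0 counts, Notch3 and Abcc9 at most 1 and Acta2 at most 3 in any nerve. Of 5 tested fibroblast genes Col1a1 and Col3a1 were lower, while Pdgfra had a log2FC of 0.19 at an adjusted p of 0.166 in edgeR's test. The fibroblast list summed to 197 to 210 CPM in intact and 172 to 192 in crushed nerves. Most of this sum was Thy1, at means of 124 in intact and 106 in crushed nerves, and Dcn, Lum and Col1a2 were at or near 0. Erbb3 and Ncam1 of the Schwann cell list were lower, and the whole list, most of it Ncam1, summed to 98.9 to 111 CPM in intact and 84.0 to 91.5 in crushed nerves, with Sox10 and S100b near 0 as given above. Pparg, the only tested gene of the adipocyte list, was lower too, and that list stood at 7.31 to 9.84 CPM in intact and 5.15 to 6.34 in crushed nerves. Of the myelin list 4 genes were tested, of the neuron list 2, of the macrophage list 3, of the endothelial list 4, of the perineurial list 3 and of the muscle list 1, and 0 passed at an adjusted p under 0.05 in edgeR's test. Among these tested genes, Cnp, Nefh, Flt1 and Tnnt3 were higher in the crushed nerves without overlap, at log2FC of 0.21, 0.25, 0.14 and 1.03. Prx, Tek and Itgb4 were lower without overlap, at −0.20, −0.66 and −0.19. The myelin list summed to 105.8 to 108.8 CPM in intact and 109.0 to 113.5 in crushed nerves, without overlap. No lymphocyte marker had enough counts to be tested. The macrophage list summed to 3.98 to 5.61 CPM in intact and 4.43 to 6.30 in crushed nerves. The proliferation list had 0 of 8 genes past the test and stood at 3676 to 3883 CPM in intact and 3567 to 3683 in crushed nerves. The part of these cell types in the values of Cacna1i and Kcnn4 was not tested.

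**Figure D3:**
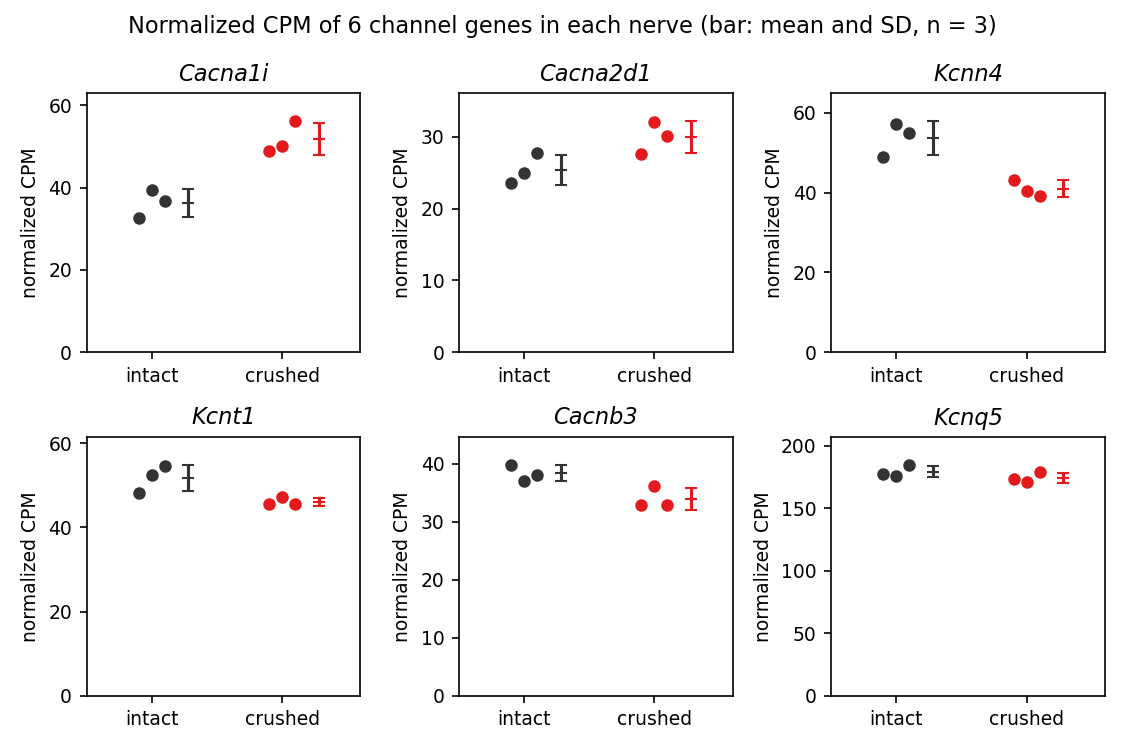
Normalized CPM (vertical axis, from 0) of 6 channel genes in 3 intact (black) and 3 crushed nerves (red), with the mean and SD beside the points. Cacna1i lies at 36.3 in intact and 51.7 in crushed nerves and Kcnn4 at 53.6 and 40.9, both without overlap, whereas Kcnq5 differs little at 179 and 174.

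The other genes of high level did not pass the adjusted test. Kcnq5, which held the largest share, had 4476, 4644 and 4574 counts in intact and 4723, 4642 and 4473 in crushed nerves. The groups overlapped, and the log2FC was −0.04 with a 95% interval of −0.13 to 0.05. The interval keeps its difference within 0.914 to 1.03-fold. Kcnd1, Kcnj14, Kcnh1 and Kcnk5, at 2.64 to 4.99 FPKM, had log2FC between −0.05 and 0.01 with SEs of 0.0681 to 0.0926, and none of the 4 passed the test.

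Cacna2d1, Kcnt1 and Cacnb3 had an unadjusted p under 0.05 but did not pass the adjusted test. Cacna2d1 had 598, 659 and 687 counts in intact and 756, 872 and 755 in crushed nerves. In normalized CPM the groups overlapped, because the highest intact and the lowest crushed nerve were both at 27.7. Its log2FC was 0.24 with an SE of 0.0802 at an adjusted p of 0.166 (edgeR's quasi-likelihood test). Kcnt1 had 48.3, 52.4 and 54.5 CPM in intact and 45.4, 47.2 and 45.7 in crushed nerves, with no overlap. Its log2FC was −0.17 with an SE of 0.0583 at an adjusted p of 0.184 in the same edgeR test. Cacnb3 had 39.8, 37.1 and 38.0 CPM in intact and 32.8, 36.1 and 32.8 in crushed nerves, again with no overlap, and a log2FC of −0.17 with an SE of 0.0622 at an adjusted p of 0.194 from edgeR.

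Groups did not overlap for 6 of the 31 tested channel genes. Crushed nerves were higher for 2, Cacna1i and Cacna1g, and lower for 4, Kcnn4, Kcnt1, Cacnb3 and Kcnh2, in normalized CPM, while over all tested genes the groups did not overlap for 10.8% with crushed higher and for 12.2% with crushed lower. Cacna1g, a T-type pore named here after its values were seen, had 11, 11 and 9 counts in intact and 13, 18 and 15 in crushed nerves, with a log2FC of 0.51 whose 95% interval ran from −0.16 to 1.18. Kcnh2 had 8.89, 9.21 and 8.76 normalized CPM in intact and 8.57, 8.32 and 8.26 in crushed nerves, and its raw counts, at 217 to 243 against 207 to 234, overlapped. Its log2FC was −0.09 with an SE of 0.0883. The median log2FC of the 31 channel genes was −0.04, beside 0.00 for all tested genes, with 12 values above 0 and 19 below.

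The intervals bound what could have been missed. For 26 of the 31 channel genes the 95% interval lay within a 2-fold change in either direction. The 5 genes with wider reach were Kcnrg, Cacna2d2, Kcne2, Kcnab1 and Cacna1g, of which Kcne2, Kcnab1 and Cacna1g are named after their values were seen. For the 16 genes with at least 600 counts over the 6 nerves the interval reached a median of 0.19 on the log2 scale to either side, and for the 15 genes below it 0.55. Cacna2d2, an alpha2delta subunit, had 13 counts in crushed nerve 2, against 63 and 56 in the other crushed nerves and 38 to 53 in the intact nerves.

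**Figure D4:**
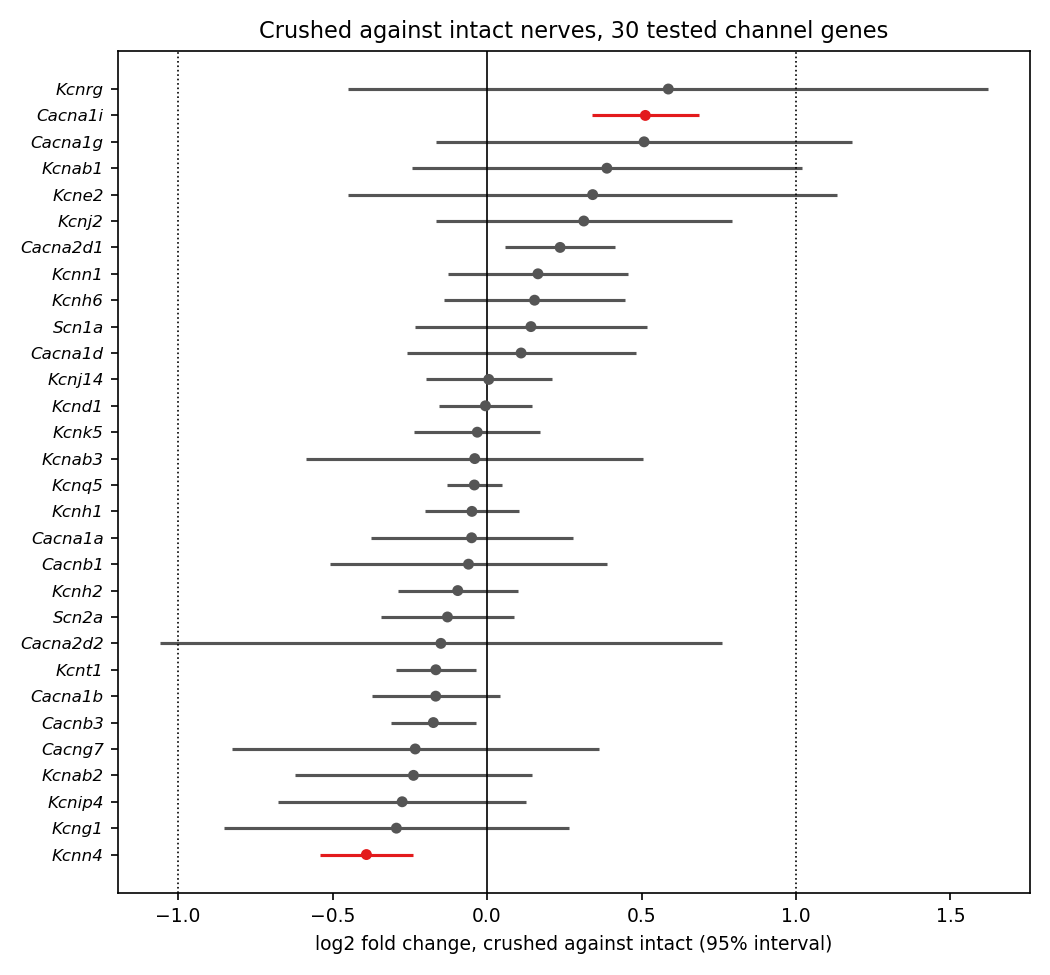
Log2 fold change of crushed against intact nerves (points) with the 95% interval (lines) for 30 tested channel genes, from edgeR's quasi-likelihood fit, n = 3 nerves per group. Cacna1i and Kcnn4 (red) passed an adjusted p under 0.05, and 25 of the 30 intervals lie between the dotted lines that mark a 2-fold change.

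The tested sodium channels and most auxiliary subunits lay close to 0 on the log2 scale or had wide intervals. Among the sodium channels, Scn2a had 273, 298 and 302 counts in intact and 309, 257 and 265 in crushed nerves, and its log2FC was −0.13 with an SE of 0.0975. Scn1a had a log2FC of 0.14 with an SE of 0.170. The potassium auxiliary genes Kcnip4, Kcnab2 and Kcnab3 had log2FC of −0.27, −0.24 and −0.04 with SEs of 0.182, 0.173 and 0.247. Kcnj2, the classical inward rectifier of muscle and endothelium, had 28 to 30 counts in intact and 29 to 47 in crushed nerves, with a log2FC of 0.31 and an SE of 0.217. Cacnb1, the beta subunit of skeletal muscle, had −0.06 with an SE of 0.203, and Cacng7, a gamma subunit also known from glutamate receptors, −0.23 with an SE of 0.269. Kcnrg, a regulator of potassium channel assembly, had 3, 6 and 12 counts in intact and 12, 9 and 12 in crushed nerves, and it overlaps a small nucleolar RNA gene that had 30 counts.

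Of the genes too low for the test, Cacnb2 had the smallest p in a fit without the filter on low counts. This calcium channel beta subunit had 17, 16 and 9 counts in intact and 6, 5 and 6 in crushed nerves. In that fit its log2FC was −1.34 with an SE of 0.424 at an adjusted p of 0.164 (edgeR's quasi-likelihood test), so the difference did not pass. Groups of normalized CPM also did not overlap for Kcnmb4, given above, which was lower, and for Kcns1 and Kcnip3, both named after their values were seen, which were higher. Kcnip3, a calcium-binding partner of A-type channels, had 6, 7 and 3 counts in intact and 8, 8 and 9 in crushed nerves. In the unfiltered fit the 3 next lowest p-values of the untested channel genes belonged to Kcns1, Scn9a and Kcnk4, each with at most 6 counts in any nerve and adjusted p between 0.257 and 0.391.

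The partners of the channels and other genes of ion transport, together named partner genes, were examined in the same fit. Of 104 genes in the table from lists of channel partners, node of Ranvier proteins, calcium release and entry, and ion pumps, 49 were tested, of which 0 were called higher and 1 lower. Over all 12393 genes tested, the same rule called 0.218% higher and 0.0646% lower. The tested genes comprised 6 from the list for sodium channels and 3 from that for potassium channels, both of which also hold other channels. A further 6 were partners of calcium channels, 15 were genes of calcium release and entry, 6 of the node and 13 pumps, exchangers and chloride channels. The called gene was Atp2b4, a plasma membrane pump that expels calcium, with 74, 58 and 61 counts in intact and 34, 27 and 33 in crushed nerves. Its log2FC was −1.09 with an SE of 0.197 at an adjusted p of 0.0131 (edgeR's quasi-likelihood test). Intact and crushed nerves did not overlap. The call was lost without intact nerve 1 or crushed nerve 2, where the log2FC was −0.97 and −0.98, and with limma on log2(FPKM + 0.1), where it was −0.70. Without crushed nerve 1 or 2 the adjusted p of edgeR's test was 0.0568 and 0.0707.

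The 4 next genes by p did not pass the adjusted test. Rrad, a small GTPase that holds back calcium channels, had 19, 11 and 13 counts in intact and 7, 6 and 5 in crushed nerves, with a log2FC of −1.30 and an adjusted p of 0.110 by edgeR's quasi-likelihood test. Cadm4, an adhesion protein of Schwann cells, had 42, 41 and 36 against 23, 16 and 34 counts, with a log2FC of −0.75. Calm2, a calmodulin gene with near-identical copies whose reads may be split uncertainly, had a log2FC of −0.17, and Ank3, the ankyrin that anchors sodium channels at nodes, −0.12. The node genes Nfasc, Cntn1 and Gldn had 0 counts in all nerves, while 7 of the 13 node genes were detected. Among these, Dlg4 had 1259 to 1366 counts, Ank2 563 to 632 and Cntnap1 80 to 139.

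Ryr3, an intracellular calcium release channel named here after its values were seen, was too low for the test, at 2, 2 and 2 counts in intact and 14, 12 and 8 in crushed nerves. In the fit without the filter it was higher, with a log2FC of 2.38, an SE of 0.534 and an adjusted p of 0.0392 (edgeR's quasi-likelihood test). Its groups did not overlap, and the intact nerves were below the detection limit of 3 counts. The median log2FC of the 49 tested partner genes was −0.02.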

How the data were processed

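Counts of reads per Ensembl gene, not normalized, and FPKM values (corrected for gene length and library total) were deposited by the authors in 1 table for 6 nerves. The submitters' processing notes name HISAT2, StringTie 1.3.0 and the Rnor_6.0 build. The counting rule, its use of strand and the annotation release are not given in the sources used here. Of the 31 tested channel genes, 8 overlap another gene of the table, 4 of them one with counts, among them Kcnq5, Kcnrg and Kcnab1, and without strand such reads cannot be told apart. The 12 columns were matched to nerves by sample title. All 30957 genes entered edgeR's quasi-likelihood test, run in R 4.3.3 with edgeR 4.0.16 (limma 3.58.1 for FPKM), TMM factors, edgeR's expression filter (12393 genes kept) and no replicate block, 3 crushed against 3 intact nerves, with Benjamini-Hochberg adjustment over all genes tested. Calls used an absolute log2 fold change above 1 and an unadjusted p under 0.001. The SE came from the test statistic. Normalized CPM are counts scaled by library total and TMM factor. The calculation was tested on simulated counts.

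The genes named are, per class, the 4 of highest mean FPKM, those called, the 5 of smallest p, and a list known from nerve. Kcnh6 and the genes so marked in the text were named after their values were seen. Members, partner lists and markers were chosen with earlier results of these data known. Alternatives were DESeq2 1.42.0, edgeR's exact test, no filter, upper-quartile factors, limma on log2(FPKM + 0.1) and log2(FPKM + 1), a replicate block, each nerve left out, other detection limits and no fold limit. Floors cover counting error only. A few genes are not reported here by name or shown in the plots.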

Additional observations from a re-analysis of the deposited data

How the results depend on the processing

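Cacna1i kept its direction and an adjusted p under 0.05 (edgeR's quasi-likelihood test unless another tool is named) in all 13 alternative fits, with a log2FC from 0.45 to 0.58 and an adjusted p from 3.1e-07 to 0.0387. Kcnn4 kept its direction in all 13 and its call in 10. When single nerves were left out, the number of channel genes lower at an adjusted p under 0.05 ran from 0 to 1, and the called partner genes from 0 to 1 higher and from 0 to 1 lower. Where the fold was not limited, Cacna1i was called higher and Kcnn4 lower, the same genes as at the adjusted p. The share of all tested genes called by that rule was not counted. At least 1 count over the 6 nerves held for 67 channel genes in place of 44, and at least 10 counts in 3 nerves or edgeR's expression filter for 31. Without the filter on low counts 1 partner gene, Ryr3, was called higher, and with limma on log2(FPKM + 0.1) and on log2(FPKM + 1) 0 were called lower. On these scales the log2FC of Kcnd1 turned to 0.012 and 0.0101. edgeR's exact test put the adjusted p of Rrad at 0.0368.

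Directions that turned when 1 nerve was left out all belonged to genes that had not passed the test. Their log2FC ranged from −0.0153 to 0.017 for Kcnd1, −0.0447 to 0.079 for Kcnj14, −0.0897 to 0.0042 for Kcnh1, −0.0795 to 0.0067 for Kcnk5, −0.486 to 0.022 for Cacng7, −0.219 to 0.185 for Cacnb1, −0.224 to 0.128 for Kcnab3, −0.468 to 0.298 for Cacna2d2, −0.13 to 0.0116 for Cacna1a and −0.0499 to 0.196 for Cacna1d, and what moved them besides the loss of 1 nerve was not tested. Same-numbered intact and crushed nerves did not deviate together (correlations of −0.0148, 0.00586 and 0.0756 over genes), and the fit with a replicate block left 1 channel gene higher and 1 lower at an adjusted p under 0.05 and 0 called.

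The 15 tested channel genes below 600 counts had wider intervals than the 16 above, at medians of 0.55 and 0.19 to either side on the log2 scale. The parts of depth and of spread between nerves in this were not tested. For the 66 genes at 0 in all nerves no difference was detectable at this depth.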
